A study of Mus musculus with 20 samples.

Results

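In hippocampal neurons with a sponge for miR-124 or for miR-125, most 3′UTRs that were moderately enriched with AGO2 took a smaller share of the library than with the control sponge for miR-292, while 97 3′UTRs of 96 genes kept at least 0.9 of the control value with each sponge. Of the 97, 40 were at or above the control with both, and so were 3483 of the 8203 3′UTRs that passed the count minimum. The 97 were chosen from the AGO2 libraries themselves. Of the 38158 3′UTRs in the files, 8203 had at least 10 counts in each of the 8 libraries. Of these, 1793 had a mean CPM (counts scaled to a common library total) in the control sponge libraries from 1.5 to 4 times that of sham, and the 97 were those whose mean CPM with each of the other sponges was at least 0.9 of the control mean. They were 5.41% of the 1793 and 1.18% of the 8203, while 1304 fell below 0.9 with both sponges and 392 with 1 of them. Since all 8 libraries entered this choice, the AGO2 values of the 97 are described without a test. The control libraries also set the enrichment range, so a fall of the 1793 against them is partly built into the choice. Over all 8203 the median ratios to the control were 1.02 with miR124sp and 1.03 with miR125sp. The cause of the fall was not tested.

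RNA immunoprecipitation and sequencing (RIP-seq) was done on fresh hippocampal tissue of adult male C57BL/6 mice injected in the hippocampus with AAV5 vectors, which carry a GFP-AGO2 fusion protein and a sponge on 1 transcript under the human synapsin promoter, so that the tagged protein is made in neurons. In 3 groups GFP-AGO2 came with a sponge, against miR-292, which the brain lacks and which served as the control (miR292sp), against miR-124 (miR124sp) or against miR-125 (miR125sp). The other group was sham-injected mice without the fusion protein. Each group had 2 libraries, every library from the pooled lysate of 2 hippocampi. In separate mRNA-seq of hippocampal tissue, labelled as freshly frozen and holding all its cell types, 3 mice with GFP.miR124sp were compared with 3 GFP mice, and 3 mice with GFP.miR125sp with 3 other GFP mice, all from AAV5 vectors with a synapsin promoter and without AGO2.

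AGO2 is the protein of the RNA-induced silencing complex that holds a miRNA and, through it, the mRNA. A miRNA pairs with the 3′UTR of its targets mainly through its seed, the bases near its 5′ end, and the pairing lowers the stability or the translation of the mRNA. A sponge is a transcript with many sites for 1 miRNA, which competes with the natural targets for the loaded complex. miR-124 is the typical miRNA of neurons, and miR-125 is abundant in neurons and glia.

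The sequences show where the seeds of the sponged miRNAs could pair in the retained 3′UTRs. They are from members that were among those with the most matches, written 5′ to 3′ as the transcript with T for U, on NCBIM37 (mm9), and capitals mark the 7 bases opposite miRNA bases 2 to 8 (GTGCCTT for miR-124, CTCAGGG for miR-125, which was searched with the seed of miR-125b in RefSeq). In the miRNA itself capitals mark the seed.
miR-125b: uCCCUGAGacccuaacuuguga
Gpam, miR-124 site 1, chr19:55145274-55145302, minus strand: caggaagacacGTGCCTTctgcccccgtg
Gpam, miR-124 site 2, chr19:55144749-55144777, minus strand: acgtgacaagaGTGCCTTtgagctgtaat
Gpam, miR-124 site 3, chr19:55144398-55144426, minus strand: gtagtgggtagGTGCCTTtctcatgagcg
Pskh1, miR-124 site 1, chr8:108454480-108454508, plus strand: tgtcaccctccGTGCCTTtgcagagccca
Pskh1, miR-124 site 2, chr8:108454935-108454963, plus strand: ctgaaccctggGTGCCTTgggtgctgacc
Pskh1, miR-124 site 3, chr8:108455359-108455387, plus strand: ccaagtcaactGTGCCTTctatatgctct
Rhog, miR-124 site 1, chr7:109388119-109388147, minus strand: ccccaccaattGTGCCTTggcgccttgtc
Rhog, miR-124 site 2, chr7:109388090-109388118, minus strand: tgcccccagctGTGCCTTaaggactaatt
Prtg, miR-125b site 1, chr9:72760110-72760136, plus strand: acagccacgCTCAGGGattcacaacaa
Prtg, miR-125b site 2, chr9:72761845-72761873, plus strand: tctttcctgtaCTCAGGGacttttttgtt
Prtg, miR-125b site 3, chr9:72764778-72764806, plus strand: tttctgcttgtCTCAGGGgaccagctctg
Med28, miR-125b site 1, chr5:45917687-45917715, plus strand: ctgcgcctcatCTCAGGGcacagggtttt
Med28, miR-125b site 2, chr5:45918639-45918667, plus strand: aaccacatgaaCTCAGGGcttcagttaca
All of these sites lie in annotated 3′UTRs. Gpam (mitochondrial glycerol-3-phosphate acyltransferase) and Pskh1 (a serine kinase) held 3 miR-124 matches each, and Prtg (protogenin, a cell surface protein of the immunoglobulin family) held 3 matches of the miR-125 seed. The second Rhog site and the first 2 Prtg sites were followed by A, which makes an 8-base match. The bases were searched on the transcript strand only, and a match is a run of letters, not a shown binding site.

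The RIP libraries held 2417942 to 5072501 counts in 3′UTRs and the mRNA-seq libraries 6950522 to 27833176. The RIP libraries differed in what else they contained. The 10 astrocyte markers, which include Slc1a2, summed to 64200 to 64700 CPM in sham and 15700 to 16500 with miR292sp. They summed to 44800 to 45300 with miR124sp and 35900 to 38400 with miR125sp, and all 10 had counts in every group. Slc1a2 alone supplied most of each sum. Its library share ran from 5.98% to 6.0% for sham and from 1.41% to 1.49% for miR292sp. For miR124sp it ran from 4.13% to 4.15%, and for miR125sp from 3.27% to 3.52%. Over the 10 measured astrocyte 3′UTRs, counted equally, the median was 0.322 of sham with miR292sp. Median ratios to miR292sp were 2.16 with miR124sp and 1.93 with miR125sp. The 10 neuron markers summed to 4860 to 4870 CPM in sham, 6280 to 6580 with miR292sp, 5370 to 5510 with miR124sp and 5490 to 6230 with miR125sp, with Syt1 and Map2 at 0 in every group. Although the labels give the cell type as hippocampal neurons, astrocyte 3′UTRs were thus present in all RIP libraries, and their sums with miR124sp and miR125sp lay between the control and sham. So did those of the 10 endothelial and mural markers, at 482 to 493 CPM in sham and 141 to 167 with miR292sp. They were 267 to 337 with miR124sp and 252 to 306 with miR125sp, with Pecam1 and Pdgfrb at 0 in every group. Sums of the 10 microglia markers were 105 to 107 CPM in sham and 66.8 to 83.2 with miR292sp. With miR124sp they reached the sham level, at 94.2 to 107, and with miR125sp they were 86.1 to 98.6. Those of the 10 oligodendrocyte markers did not lie between, at 983 to 1030 CPM in sham and 953 to 967 with miR292sp. They were 865 to 1150 with miR124sp and 1090 to 1110 with miR125sp. The 6 choroid plexus markers summed to 114 to 354 CPM in sham, 56.9 to 67.0 with miR292sp, 86.6 to 119 with miR124sp and 355 to 449 with miR125sp. The part of this in the results was not tested.

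As a share of all counts, the 97 3′UTRs together took 0.341% and 0.381% of the sham libraries. Their share was 0.731% and 0.678% with miR292sp, 0.729% and 0.687% with miR124sp, and 0.751% and 0.738% with miR125sp. The 6 AGO2 libraries differed by little in the summed share, and both sham libraries stood below all 6. Both are largely set by the rule that chose the 97. The median 3′UTR of the 97 was 1.83 times sham in the control (range 1.51 to 3.65). Its ratio to the control was 1.00 with miR124sp (0.902 to 1.73) and 1.07 with miR125sp (0.907 to 1.68). In the 1304 3′UTRs below 0.9 with both sponges, these medians were 2.27 over sham, 0.656 and 0.729, and over all 8203 they were 0.876, 1.02 and 1.03.

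**Figure D1:**
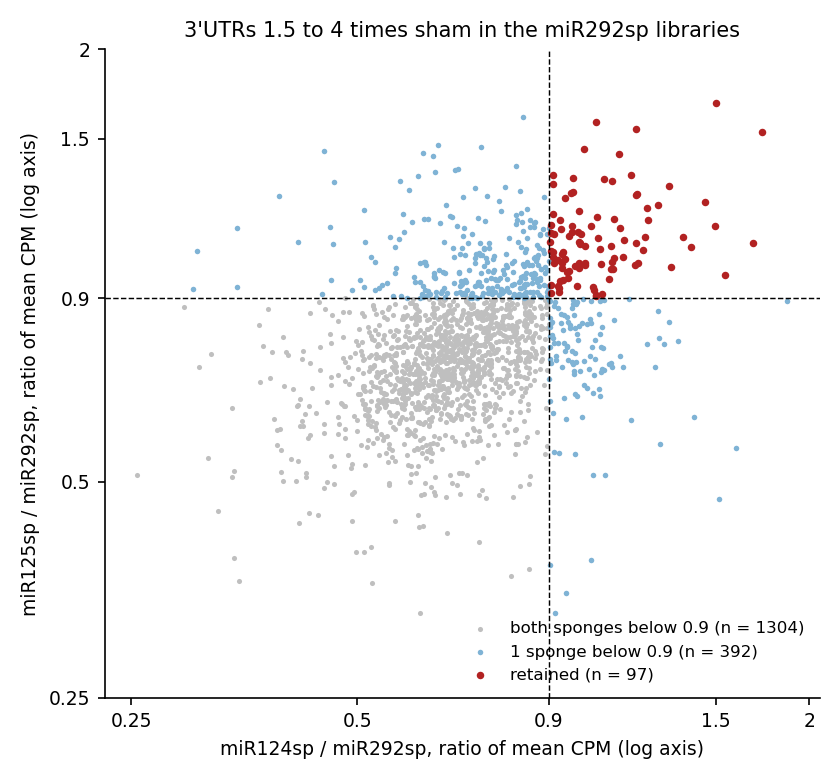
Ratio of the mean CPM with miR124sp (x axis) and miR125sp (y axis) to the control miR292sp, both on log axes, for the 1793 3′UTRs that were 1.5 to 4 times sham in the control. Dashed lines mark 0.9, and the 97 retained 3′UTRs (red) fill the upper right corner by the rule, beside 1304 below both lines and 392 below 1 of them.

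Relative to sham, the retained 3′UTRs had a median of 1.98 with miR124sp and 2.05 with miR125sp, against 1.49 and 1.60 in the 1304 that fell with both sponges. Their median CPM in the control was 34.5, against 109 in those that fell and 38.8 in all 8203. Of the 97, 23 had a library with under 20 counts (23.7%, against 9.66% of the 1304 and 16.8% of the 8203), so counting error weighs more on them. Libraries of 1 group differed by a median fold of 1.45 in sham, 1.23 with miR292sp, 1.34 with miR124sp and 1.24 with miR125sp in the 97, and by 1.33, 1.14, 1.23 and 1.18 in the 1304.

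**Figure D2:**
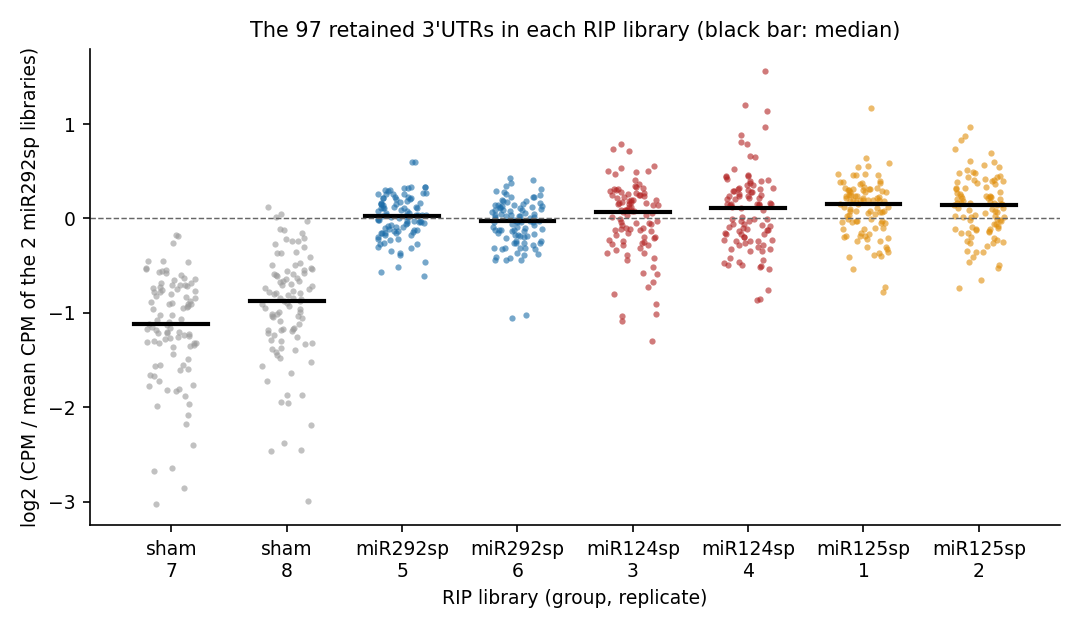
Each of the 97 retained 3′UTRs in each RIP library, as log2 of its CPM over the mean of the 2 miR292sp libraries (y axis), with a black bar at the median. As ratios, the library medians were 0.462 and 0.547 in sham, 1.02 and 0.980 with miR292sp, 1.05 and 1.08 with miR124sp, and 1.11 and 1.10 with miR125sp, and single 3′UTRs ranged from 0.406 to 2.96 in the sponge libraries.

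All 4 sponge libraries reached 0.9 of the control mean in 24 of the 97, 3 of 4 in 46 and 2 of 4 in 27, where a high library made up for a low one. Among all 8203 these numbers were 2816, 1500 and 1269. Both miR124sp libraries were above both control libraries in 10 of the 97 (10.3%), against 28.7% of the 8203. The same held for miR125sp in 20 (20.6%, against 28% of all). Both control libraries were above both sham libraries in 85 (87.6%, against 32.3%), and all these counts follow from values that chose the members. Leaving out 1 of the 8 libraries and applying the rule again gave 92 to 228 3′UTRs, of which 52 to 78 were among the 97. The 228 arose without sham replicate 8.

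Retention holds on the scale of CPM. The study instead scaled libraries on a window of genes centred on Gapdh when all genes were ranked by unscaled enrichment, with 50 genes above and 50 below. Those genes took 2.01% and 1.92% of the sham counts, 0.697% and 0.745% with miR292sp, 1.45% and 1.43% with miR124sp and 1.21% and 1.29% with miR125sp. On that scale all 97 were above 4 times sham, which was the limit the study set for a target, with a median of 4.99. This follows from the range they were chosen in, since the 1696 other 3′UTRs of that range were all above 4 too, against 27.2% of all 8203. Their median ratio to the control fell to 0.50 with miR124sp and 0.618 with miR125sp, and 0 of 97 and 2 of 97 stayed at or above 0.9. The median of all 3′UTRs moved with them, to 0.511 and 0.593, which is −0.97 and −0.75 on the log2 scale. A scaling changes all 3′UTRs of a library by the same factor, so the 97 are near the median of all on either scale. The 1304, at 0.328 and 0.421 here, are below it on either scale. Both positions follow from the rule that chose these sets. The limit of 0.9 is not one of the study, which judged loss with a sponge by the change in a gene's rank of enrichment. Ranks are not reported here. TMM scaling left 97 and 96 of the 97 at or above 0.9, and DESeq2 size factors 80 and 86.

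The limits cut through a continuous range. Just inside 0.9 were Hs1bp3 at 0.902 with miR124sp, Zbtb8os at 0.904, and Mars2 and Nek3, both at 0.905. Just outside were Fem1c, which rounds to 0.90, Ssna1 at 0.899 and Synpr at 0.898. At the lower end of enrichment, Tmem41b (1.508), Bbx (1.516), Edem3 (1.520) and Riok2 (1.522) were in, and Slc35b2 (1.498), Sdhaf1 (1.496) and Rfwd2 (1.490) were out. Above 4 times sham only 4 retained 3′UTRs were measured, the nearest being Gm16515 at 4.269, Fam83h at 4.879 and Mdga1 at 4.991.

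Calm2, which encodes the calcium sensor calmodulin, had the highest control level of the 97 (3′UTR of ENSMUST00000040440 at chr17:87832752-87833366, minus strand). Calm2 had 362 and 449 CPM in sham, 716 and 635 with miR292sp, 671 and 644 with miR124sp, and 709 and 639 with miR125sp. The 6 AGO2 libraries overlapped and all lay above sham, with 1.66 times sham and ratios to the control of 0.974 and 0.999. Dot1l, the methyltransferase of histone H3 lysine 79, followed (3′UTR of ENSMUST00000105336 at chr10:80256260-80258206, plus strand). Dot1l had 158 and 155 CPM in sham, 401 and 397 with miR292sp, 405 and 342 with miR124sp, and 422 and 383 with miR125sp. The second miR124sp library was lower than the others, and no AGO2 library came near sham (2.55 times sham and ratios to the control of 0.935 and 1.01).

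Tet2, an enzyme that oxidises 5-methylcytosine, was the other chromatin gene among those at the top (3′UTR of ENSMUST00000098603 at chr3:133126643-133129700, minus strand). Tet2 had 191 and 182 CPM in sham, 429 and 316 with miR292sp, 393 and 297 with miR124sp, and 393 and 365 with miR125sp. In both the control and miR124sp 1 library was well above the other, and the 2 groups overlapped. Col4a2, a chain of the collagen of basement membranes, had 146 and 259 CPM in sham, 388 and 341 with miR292sp, 433 and 299 with miR124sp, and 396 and 335 with miR125sp. Its sham libraries differed the most among these genes, and the second was close to the lower miR124sp library.

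Edem3, a protein of the degradation of misfolded glycoproteins in the endoplasmic reticulum, had 193 and 179 CPM in sham, 329 and 237 with miR292sp, 302 and 223 with miR124sp, and 264 and 261 with miR125sp. It was the least enriched of the 6 with the highest level, at 1.52 times sham. Cenpb, which binds centromeric DNA, had 112 and 97.2 CPM in sham, 231 and 258 with miR292sp, 240.0 and 218 with miR124sp, and 257 and 250.3 with miR125sp. Its control and miR125sp libraries overlapped, and it carried 1 match each for the seeds of miR-124 and miR-125.

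**Figure D3:**
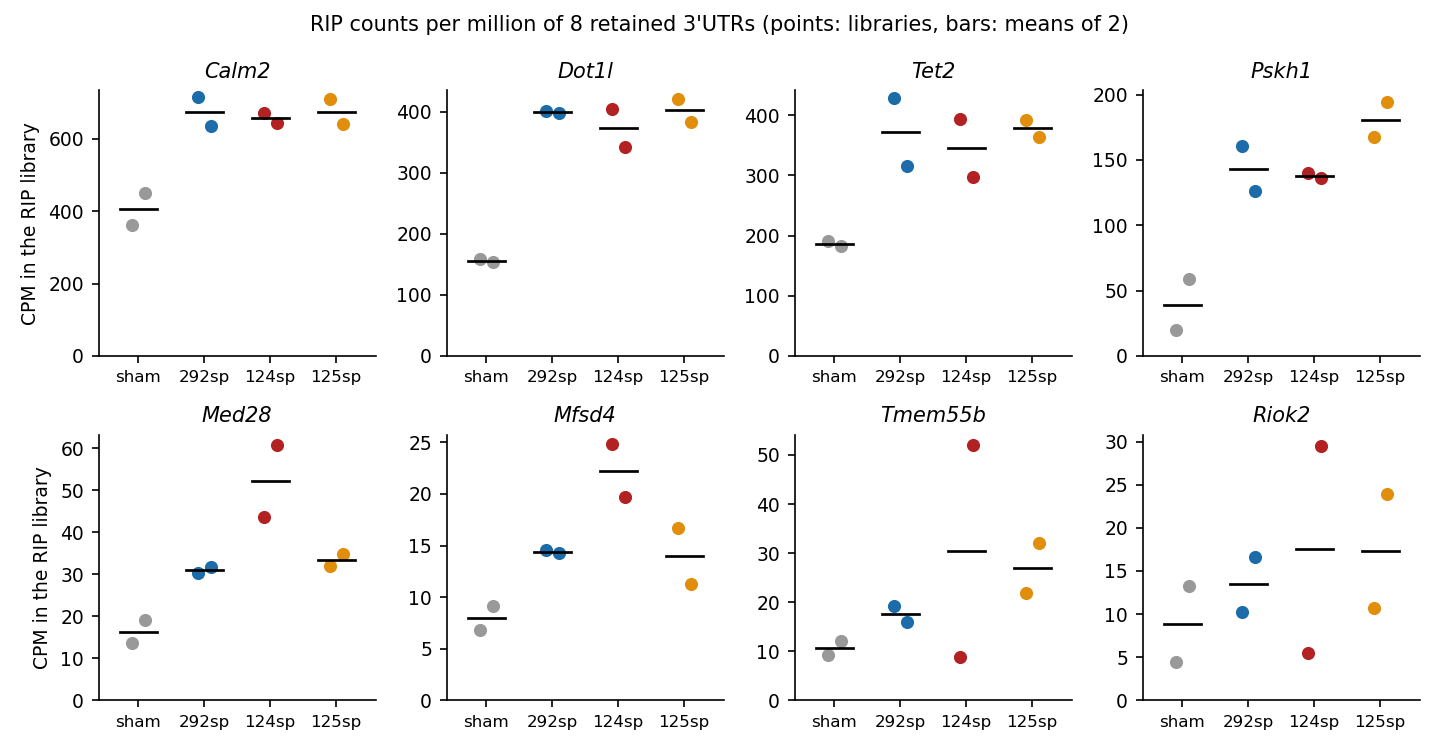
CPM (y axis, from 0) of 8 retained 3′UTRs in the 2 libraries (points) of sham, miR292sp, miR124sp and miR125sp, with the mean of each group as a bar. For Calm2, Dot1l, Tet2 and Pskh1 the libraries of the 3 AGO2 groups all lie above sham and overlap or adjoin each other, for Med28 and Mfsd4 both miR124sp libraries lie above the control, and for Tmem55b and Riok2 a single miR124sp library carries the mean.

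The strongest enrichment over sham was in Pskh1, a serine kinase (3′UTR of ENSMUST00000049699 at chr8:108453869-108455678, plus strand). Pskh1 had 19.8 and 58.7 CPM in sham, 160.5 and 126.3 with miR292sp, 140.1 and 136 with miR124sp, and 167 and 194 with miR125sp. Both miR125sp libraries were above both control libraries, and both miR124sp libraries lay between the control libraries. The sham libraries held 58 and 142 counts and differed far more than the AGO2 libraries did, so the enrichment of 3.65 has a wide error. Prtg, at 3.61 times sham, had 11.9 and 41.8 CPM in sham, 105 and 89.2 with miR292sp, 113 and 68.6 with miR124sp, and 110.3 and 82.3 with miR125sp. Here too the sham libraries were far apart.

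Adamts20, a secreted metalloprotease at 3.59 times sham, had 13.6 and 13.2 CPM in sham, 60.9 and 35.7 with miR292sp, 51.3 and 66.2 with miR124sp, and 60.2 and 56.1 with miR125sp. Both sham libraries were alike and low, and both sponges lay above the control mean. Fbxo10, the substrate adaptor of a ubiquitin ligase, had 21.5 and 6.20 CPM in sham, 62.7 and 36.5 with miR292sp, 52.4 and 41.4 with miR124sp, and 68.6 and 54.7 with miR125sp. Its second sham library held 15 counts against 63 in the first. Hs1bp3, at 3.58 times sham, had 64.8 and 62.4 CPM in sham, 214 and 242 with miR292sp, 192 and 218 with miR124sp, and 223 and 268 with miR125sp, with sham libraries that differed by little, and with miR124sp it sat at the limit of 0.9.

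The members with the highest lower ratio, meaning the least loss with either sponge, were Tmem55b, Accs, Riok2, Cplx3 and Snx17, and all were weakly covered. Tmem55b, a phosphatase of phosphatidylinositol 4,5-bisphosphate on lysosomes, had 9.21 and 12.0 CPM in sham, 19.1 and 16.0 with miR292sp, 8.74 and 52.0 with miR124sp, and 21.8 and 32.1 with miR125sp. One miR124sp library was below the control and the other far above it, so that the mean ratio of 1.73 belongs to a single library. Riok2, a kinase of ribosome maturation, had 4.44 and 13.2 CPM in sham, 10.3 and 16.6 with miR292sp, 5.46 and 29.6 with miR124sp, and 10.7 and 24.0 with miR125sp. Again miR124sp replicate 3 was the lowest of the AGO2 libraries and replicate 4 the highest, from 20 and 87 counts.

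Cplx3, a complexin of synaptic vesicle release, had 6.48 and 5.38 CPM in sham, 12.6 and 15.4 with miR292sp, 8.46 and 32.3 with miR124sp, and 16.1 and 18.3 with miR125sp, with the same split between the miR124sp libraries. Accs had 3.41 and 4.96 CPM in sham, 12.0 and 3.81 with miR292sp, 11.2 and 12.6 with miR124sp, and 17.9 and 8.74 with miR125sp. The ratios of 1.501 and 1.68 rest on control libraries of 61 and 19 counts, and the second was the lowest of the AGO2 libraries. Snx17, a sorting nexin of receptor recycling, had 3.41 and 13.2 CPM in sham, 15.6 and 13.2 with miR292sp, 18.6 and 17.7 with miR124sp, and 15.2 and 19.7 with miR125sp. Of these 5 it alone had both miR124sp libraries above both control libraries.

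The ratio of miR124sp to miR125sp ran from 0.656 to 1.59 over the 97, and 63 of them were higher with miR125sp, against 917 of the 1304 that fell with both sponges and 4179 of all 8203. At the high end were Mfsd4, Med28, Palmd and Iqcc. Med28, a subunit of Mediator, had 13.6 and 19.0 CPM in sham, 30.4 and 31.7 with miR292sp, 43.7 and 60.8 with miR124sp, and 31.9 and 34.7 with miR125sp. Both miR124sp libraries were above all others, at 1.68 times the control, while miR125sp stayed at 1.07. A second, shorter 3′UTR of Med28, which overlaps the first, was also retained and had 7.16 and 4.55 CPM in sham, 11.2 and 9.62 with miR292sp, 6.55 and 18.0 with miR124sp, and 11.0 and 15.2 with miR125sp. Its miR124sp libraries lay on either side of the control, unlike those of the longer 3′UTR.

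Mfsd4, a transporter-like protein of the major facilitator family, had 6.82 and 9.10 CPM in sham, 14.6 and 14.2 with miR292sp, 24.8 and 19.7 with miR124sp, and 16.7 and 11.3 with miR125sp. It too had both miR124sp libraries above the rest. Iqcc, a protein with an IQ motif, had 9.89 and 15.7 CPM in sham, 18.3 and 26.1 with miR292sp, 27.3 and 39.1 with miR124sp, and 24.1 and 26.2 with miR125sp, and Palmd, palmdelphin, had 11.3 and 14.5 CPM in sham, 14.2 and 27.9 with miR292sp, 24.8 and 30.2 with miR124sp, and 27.1 and 14.7 with miR125sp. For Palmd the control libraries were far apart and overlapped both sponge groups.

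At the low end were Sh3pxd2b, Sesn2, Rasl12 and H2-DMa, which were near the control with miR124sp and higher with miR125sp. Sh3pxd2b, an adaptor of podosomes, had 25.2 and 46.7 CPM in sham, 57.6 and 63.1 with miR292sp, 50.2 and 75.1 with miR124sp, and 73.3 and 118 with miR125sp. Both miR125sp libraries were above both control libraries, at 1.58 times their mean, but a miR124sp library lay above the lower of them. Sesn2, a stress-induced sestrin, had 7.16 and 11.6 CPM in sham, 15.0 and 18.2 with miR292sp, 13.9 and 16.3 with miR124sp, and 19.4 and 25.1 with miR125sp. H2-DMa, which loads peptides on MHC class II molecules, had 8.53 and 9.93 CPM in sham, 20.1 and 19.2 with miR292sp, 14.5 and 21.4 with miR124sp, and 23.0 and 28.2 with miR125sp, and Rasl12, a Ras-like protein, had 6.14 and 5.38 CPM in sham, 10.6 and 7.62 with miR292sp, 8.46 and 9.85 with miR124sp, and 11.3 and 15.2 with miR125sp. In all 3 of these both miR125sp libraries were above both of miR124sp and of the control.

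The 97 were set against 22 lists of genes, which hold only some of the genes of each group, so that members such as Rhog, Fbxo10, Runx2 and Bbx are on none of them. The lists were 6 of cell type markers and 16 of functions, and no list held more than 2 of the 97. None of the cell type markers was retained. Astrocyte 3′UTRs, at a median of 0.322 of sham in the control, were outside the enrichment range, and so were those of the other non-neuronal types. Neuron markers had 2 in the range, which both fell with both sponges. Of the listed genes, that range held 58 3′UTRs of transcription regulators, 35 of ubiquitin ligases and proteases, 22 of RNA binding proteins, 17 of glutamate and GABA receptors and scaffolds, 16 of axon guidance, 15 of voltage-gated ion channels and 8 of immediate early genes, and 0 of these listed 3′UTRs was retained. The share of all 1793 that was retained was 5.41%. No list had 3 members, so the genes named from the lists were chosen after their values were seen.

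The miRNA pathway list had 1 retained of 6 in the range, Cnot6, a deadenylase of the CCR4-NOT complex that shortens the tails of silenced mRNAs. Cnot6 had 68.9 and 70.3 CPM in sham, 124 and 121 with miR292sp, 140.3 and 90.3 with miR124sp, and 145 and 111 with miR125sp. Synaptic vesicle release had 2 of 16, Cplx3 and Slc32a1, the vesicular transporter of GABA. Slc32a1 had 22.5 and 6.62 CPM in sham, 26.2 and 25.1 with miR292sp, 27.3 and 25.5 with miR124sp, and 14.9 and 33.0 with miR125sp, and its sham and miR125sp libraries were far apart. Both genes had control levels below the median of the 97.

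Kinases and phosphatases of synaptic signalling had 2 of 28, Mark1 and Mark2, which phosphorylate microtubule-associated proteins. Mark1 had 76.1 and 63.7 CPM in sham, 126.0 and 119 with miR292sp, 98.3 and 137 with miR124sp, and 141 and 128 with miR125sp, and Mark2 had 10.6 and 37.6 CPM in sham, 60.5 and 74.6 with miR292sp, 74.5 and 48.9 with miR124sp, and 58.1 and 91.3 with miR125sp. All 6 AGO2 libraries of both genes were above both sham libraries, and those of Mark2 were further apart within a group. The cytoskeleton list had 2 of 20, Tmod3, which caps actin filaments (31.4 and 17.0 CPM in sham, 52.0 and 53.3 with miR292sp, 60.1 and 67.3 with miR124sp, and 66.2 and 49.3 with miR125sp), and Cyfip1, of the WAVE complex (10.2 and 10.8 CPM in sham, 14.4 and 19.0 with miR292sp, 11.2 and 19.7 with miR124sp, and 10.1 and 21.1 with miR125sp). The list of small GTPases and their regulators, which does not hold Rhog, had 1 of 38, Rhob (125.55 and 131 CPM in sham, 239 and 231 with miR292sp, 282 and 216 with miR124sp, and 219 and 211 with miR125sp), with all 6 AGO2 libraries above sham. Chromatin genes had 2 of 23, Dot1l and Tet2, described above.

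The other members reported here, in falling order of control level, were Zfp46, Naa40, Ctif, Tulp3, Igdcc4, Zmat3, Emp2, Adamts3, Fam84b, Mtmr10, Lysmd3, Nudt5, Kif13a, Nckipsd, Runx2, Lnx2, C230096C10Rik, 2410002I01Rik, Tln1, 2010305A19Rik, Srp9, Supt6h, Papss1, Tyk2, Elmo2, Sparcl1, Nop10, Slc16a13, Mars2, Cnot4, Ppp1r14b, Dpagt1, Cxxc1, Tmem41b, Tmem90b, Fmnl1, Fam55c, Myo1e, Sos2, Nek4, Fam117a, 1110034G24Rik, Zbtb8os, Myo1d, St8sia6, Nos1ap, Shroom4, Zkscan4, Nubp1, Arl13b, Noc4l, Csmd2, Tyw1, Nek3, Jph1, Pdp1, Ankrd42, Ampd3, Nupl1 and Zfp64. Their control means ran from 7.56 to 201 CPM. Fmnl1 was counted over a single block of 7 bases and Jph1 over 15 bases, so their values describe very short stretches. For 96 of the 97 the counted length was that of the whole annotated 3′UTR. The 97 lay on 20 chromosomes, with 11 on chromosome 4, 10 on chromosome 2 and 1 on the X chromosome.

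The median length of the 97 was 1610 bases, against 1650 in the 1304 and 1310 in all 8203, and their median GC content was 46.3%, against 46.1% and 44.5%. A 7-base match for miR-124 was in 28 of the 97 (28.9%), against 21.7% of those that fell with both sponges and 16.1% of all. Per kb of 3′UTR this was 0.198 matches, against 0.127 and 0.110. Both the share and the matches per kb were higher in the retained 3′UTRs than in those that fell, and the difference was not tested. For the miR-125 seed, 18 of the 97 had a match (18.6%), against 20.0% and 15.7%, and matches per kb were 0.116, 0.122 and 0.109.

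For the seed of the control sponge, miR-292 (GGCACTT), 8 of the 97 had a match (8.25%, against 12.4% and 10.1%). Both a miR-124 and a miR-125 match were in 9 (9.28%, against 5.53% and 3.75%), and neither was in 60 (61.9%, against 63.8% and 71.9%). Among 9 further seeds of brain and other miRNAs, the shares in the 97 and in those that fell were 22.7% and 17.9% for miR-9 (ACCAAAG), 26.8% and 29.4% for miR-128 (CACTGTG), 20.6% and 19.5% for miR-138 (CACCAGC), 18.6% and 18.0% for let-7 (CTACCTC), 15.5% and 23.7% for miR-181a (TGAATGT), 18.6% and 21.9% for miR-29a (TGGTGCT), 17.5% and 19.8% for miR-30a (TGTTTAC), 15.5% and 16.1% for miR-26a (TACTTGA) and 9.28% and 8.33% for miR-21a (ATAAGCT). None of the 12 seeds was matched in 20 of the 97 (20.6%, against 16.3% and 28.6%). No test was run on these shares, and with 97 3′UTRs a share moves by about 1 percentage point for each 3′UTR.

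**Figure D4:**
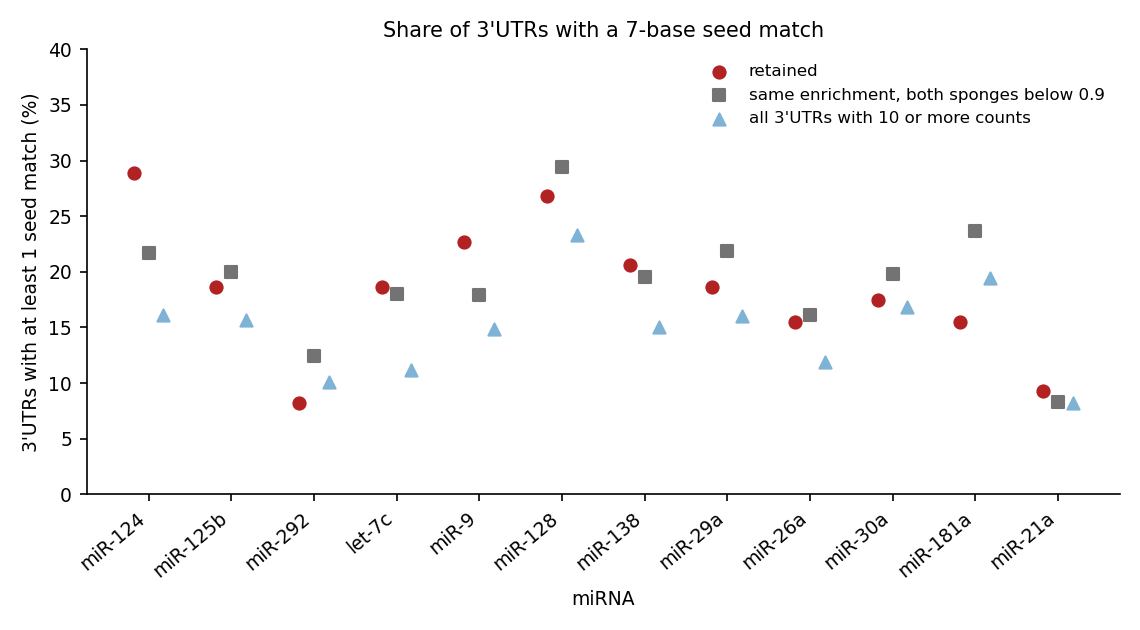
Share of 3′UTRs (y axis, percent) with at least 1 7-base match for each of 12 miRNAs (x axis), in the 97 retained 3′UTRs (red circles), the 1304 of the same enrichment that fell with both sponges (grey squares) and all 8203 (blue triangles). For miR-124 the retained 3′UTRs are highest, at 28.9% against 21.7% and 16.1%, and for miR-125b they are at 18.6% against 20.0% and 15.7%.

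Within the 97, the 28 with a miR-124 match had a median ratio to the control of 0.981 with miR124sp and 1.07 with miR125sp, and the 69 without had 1.04 and 1.06. The 18 with a miR-125 match had 0.985 and 1.124, and the 79 without had 1.03 and 1.05. The rule cut all these ratios at 0.9. Those with a miR-124 match were also more enriched over sham (median 2.262 against 1.772) and longer (1943 against 1338 bases). For miR-125 the medians were 2.137 against 1.804 and 1678 against 1519 bases. The part of this in the ratios was not tested. Over all 3′UTRs the medians with miR124sp were 0.899 with a miR-124 match and 1.05 without, and those with miR125sp were 0.936 and 1.05. With a miR-125 match they were 0.905 with miR124sp and 0.945 with miR125sp, and without one 1.05 with both. Gpam, with 3 miR-124 matches in 1196 bases, had 20.1 and 19.0 CPM in sham, 38.2 and 30.7 with miR292sp, 35.8 and 32.3 with miR124sp, and 40.8 and 41.1 with miR125sp. Its miR124sp libraries lay within the control, and both of miR125sp above it. Rhog, a small GTPase with 2 matches in 546 bases, had 16.4 and 12.4 CPM in sham, 34.7 and 21.6 with miR292sp, 25.7 and 34.3 with miR124sp, and 36.7 and 37.8 with miR125sp. Vps37c, of the ESCRT-I complex, also had 2 and had 15.4 and 18.2 CPM in sham, 62.5 and 42.1 with miR292sp, 48.6 and 48.6 with miR124sp, and 58.1 and 38.0 with miR125sp.

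The mRNA-seq was not used to choose the 97 and was tested with edgeR over all genes. Of the 96 genes, 95 were in the mRNA files and 85 passed the filter on low counts. The other 10, among them Mark2, Tyk2 and Elmo2, had at most 0.317 CPM in either GFP group, and counts of genes with several listed transcripts, 19 of the 95, are uncertain in these files. Of the 85, 15 were higher with GFP.miR124sp than with GFP and 4 were lower at an adjusted p below 0.05, 17.6% and 4.71%, against 12.6% and 10.7% of the 12967 genes tested. The median log2 fold change of the 85 was 0.09, against −0.01 over all genes, and that of the 1149 genes tested from the 1304 3′UTRs that fell was 0.08, with 20.2% higher and 6.27% lower. The difference between these shares was not tested. The p-values measure the spread between the mice of each experiment. In RNA of whole tissue, fewer cells of a type and less RNA per cell cannot be told apart.

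Myo1d, a class I myosin, had the smallest p (22.5, 23.4 and 22.8 CPM in the GFP mice and 43.8, 39.5 and 34.1 with GFP.miR124sp). The log2 fold change was 0.82 ± 0.10 (SE, adjusted p = 0.00368). Myo1e, another class I myosin, had 18.5, 20.4 and 18.0 CPM in the GFP mice and 35.0, 31.0 and 25.6 with GFP.miR124sp. This gave a log2 fold change of 0.73 ± 0.12 (SE, adjusted p = 0.00493). In both the sponge mice lay above all GFP mice of their experiment.

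Nos1ap, an adaptor of neuronal nitric oxide synthase, had 59.2, 70.3 and 71.1 CPM in the GFP mice and 108, 114 and 97.4 with GFP.miR124sp. The log2 fold change was 0.71 ± 0.10 (SE, adjusted p = 0.00393). Cplx3 showed the largest fold change of the 85, with 11.2, 12.1 and 6.61 CPM in the GFP mice and 29.4, 21.1 and 20.2 with GFP.miR124sp. This gave a log2 fold change of 1.28 ± 0.21 (SE, adjusted p = 0.00507). Its level was low, and the lowest GFP mouse was well below the other 2. Fam55c had 39.7, 33.9 and 39.8 CPM in the GFP mice and 51.4, 50.8 and 48.0 with GFP.miR124sp (log2 fold change 0.45 ± 0.08, SE, adjusted p = 0.00708). The other 10 that rose were Rhog, Mfsd4, Slc32a1, Zfp64, Edem3, Supt6h, Zmat3, Nckipsd, Tln1 and Mark1, with log2 fold changes from 0.24 to 0.56.

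The 4 genes that fell were Nop10, of the H/ACA ribonucleoproteins that guide pseudouridylation, Srp9, of the signal recognition particle, Emp2, a tetraspan membrane protein, and Med28. Nop10 had 58.7, 54.0 and 50.5 CPM in the GFP mice and 34.1, 36.1 and 40.6 with GFP.miR124sp. The log2 fold change was −0.52 ± 0.09 (SE, adjusted p = 0.00497). Srp9 had 118, 113 and 112 CPM in the GFP mice and 86.4, 86.0 and 92.5 with GFP.miR124sp (log2 fold change −0.33 ± 0.06, SE, adjusted p = 0.00708), Emp2 54.3, 62.1 and 49.0 CPM in the GFP mice and 37.4, 41.0 and 42.8 with GFP.miR124sp (log2 fold change −0.41 ± 0.10, SE, adjusted p = 0.0177) and Med28 109, 101.2 and 94.8 CPM in the GFP mice and 79.3, 82.4 and 87.1 with GFP.miR124sp (log2 fold change −0.25 ± 0.07, SE, adjusted p = 0.0305). For Med28, mRNA was lower in all 3 sponge mice than in their own GFP mice, while its longer 3′UTR was 1.68 times the control in the AGO2 libraries with miR124sp. Its sponge mice did not lie outside the range of the GFP mice of the miR-125 experiment.

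**Figure D5:**
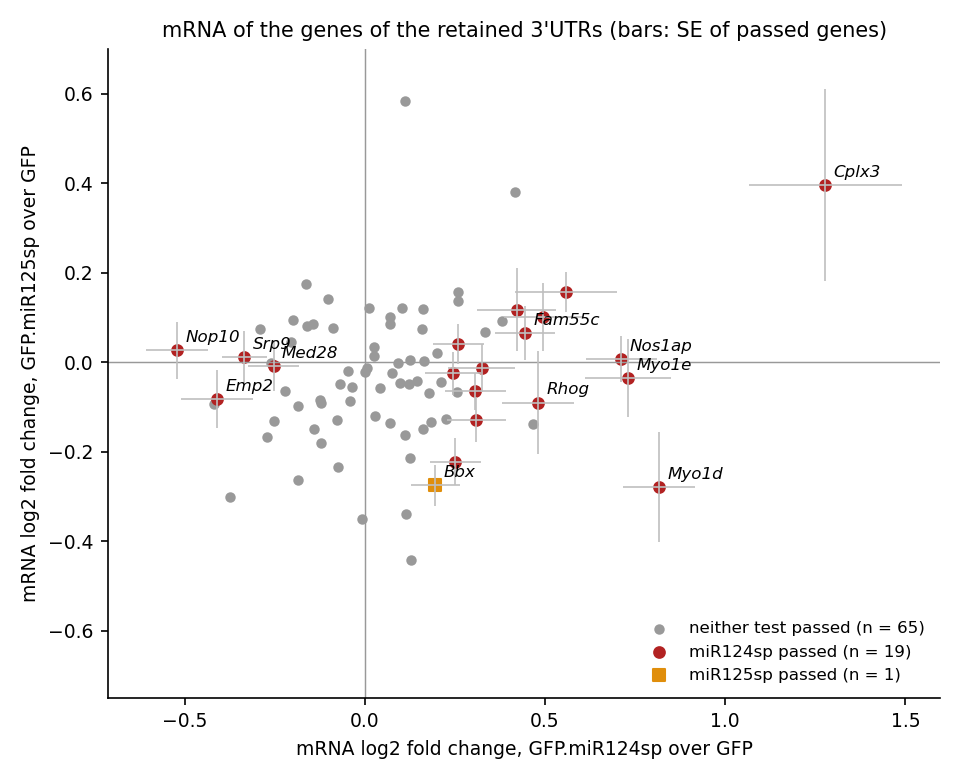
mRNA log2 fold change of the 85 tested genes with GFP.miR124sp (x axis) and with GFP.miR125sp (y axis), each over its own 3 GFP mice. Red points passed the test for miR124sp (19), the orange square for miR125sp (Bbx), grey points neither (65), and bars are standard errors of the genes that passed. The spread is wider along x, from −0.52 (Nop10) to 1.28 (Cplx3).

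The call with miR124sp depended on the GFP mice used. In all 19 genes the 3 sponge mice lay outside the range of their own GFP mice. In only 8 of the 15 higher genes and 0 of the 4 lower did they also lie outside that of the 3 GFP mice of the miR-125 experiment. Nos1ap had 105, 97.1 and 103 in those mice, and Nop10 38.3, 36.4 and 40.9, and both sets overlapped the miR124sp mice. Tested against these other GFP mice with edgeR, an alternative added after the data were seen, 0 of the 19 passed at an adjusted p below 0.05 (10 at an unadjusted p below 0.05), and 3 other genes of the 97 3′UTRs did: Cenpb was higher, against 0.917% of all genes, and Bbx and Fbxo10 lower, against 1.21%. Myo1d then had a log2 fold change of 0.37 (adjusted p = 0.127), Rhog 0.52 (adjusted p = 0.0591) and Nos1ap 0.06 (adjusted p = 0.713). This comparison crosses experiments, and experiment and group cannot be told apart in it. Marker sums moved as well. The oligodendrocyte markers summed to 957 to 1210 CPM with GFP.miR124sp against 728 to 809 in its GFP mice and 634 to 799 in the others, and astrocyte markers to 7100 to 7360 against 8510 to 10200 and 6790 to 7330. Their part in the result was not tested. Without GFP replicate 15, miR124sp replicate 14 or miR124sp replicate 2, 8 of the 19 remained in each case.

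With GFP.miR125sp, 0 of the 85 genes rose and 1 fell at an adjusted p below 0.05, against 0.0554% and 0.15% of the 12634 genes tested with edgeR. At an unadjusted p below 0.05 there were 5 higher and 13 lower, and DESeq2 called 0 higher and 4 lower. The shares of all genes under these settings are not given here, so these counts are not read as a result about the 85. The gene that fell in edgeR was Bbx, an HMG-box protein, with 104, 104 and 103 CPM in the GFP mice and 83.6, 83.1 and 86.8 with GFP.miR125sp. The log2 fold change was −0.28 ± 0.05 (SE, adjusted p = 0.043). The call was lost when any mouse but GFP replicate 15 was left out, with an adjusted p of up to 0.186. The median over the 85 was −0.02, against −0.01 over all genes. In the AGO2 libraries the 3′UTR of Bbx had 65.2 and 78.6 CPM in sham, 121 and 96.4 with miR292sp, 137 and 78.5 with miR124sp, and 123 and 93.3 with miR125sp, with overlapping groups. Against the GFP mice of the miR-124 experiment instead, 31 of the genes passed for miR125sp, with 36.9% of all genes, and Bbx was higher, at a log2 fold change of 0.25.

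The 2 sponge effects on mRNA were compared in 1 fit over the 12 mice. They differed in 13 of the 85 genes at an adjusted p below 0.05 (edgeR), 11 with the higher value for miR124sp (12.9%, against 7.4% of 13264 genes) and 2 with the lower (2.35%, against 7.06%). In the tested genes of the 3′UTRs that fell with both sponges these shares were 12.6% and 4.08%, and in those of all 8203 they were 10.2% and 8.38%. The largest difference was in Myo1d, at 1.08 ± 0.17 (log2, SE, adjusted p = 0.00167). It was 0.46 ± 0.08 (log2, SE, adjusted p = 0.00204) in Bbx, 0.69 ± 0.12 (log2, SE, adjusted p = 0.00266) in Nos1ap, 0.46 ± 0.08 (log2, SE, adjusted p = 0.00343) in Tln1 (talin) and 0.75 ± 0.16 (log2, SE, adjusted p = 0.00656) in Myo1e. The lower ones were Nop10, at −0.57 ± 0.11 (log2, SE, adjusted p = 0.00365), and Srp9, at −0.36 ± 0.08 (log2, SE, adjusted p = 0.0108). Bbx and Tln1 lay above GFP with miR124sp and below it with miR125sp in every mouse, although Tln1 passed only for miR124sp and Bbx only for miR125sp. For Bbx the GFP mice of the experiments were themselves apart, at 73.6, 70.9 and 77.6 and 104, 104 and 103 CPM, with all 6 sponge mice between them.

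By matches, 4 of the 25 tested genes with a miR-124 match rose with GFP.miR124sp and 1 fell, with a median log2 fold change of 0.10. Of the 61 without a match in a retained 3′UTR, 11 rose and 4 fell, with a median of 0.07. Med28 is in both counts through its 2 3′UTRs. Over all 3′UTRs the medians were 0.07 with a miR-124 match and 0.02 without. The shares of all genes called by match are not given here, so these counts are not read as a result about the members. The genes with a match that rose were Rhog, Myo1e, Zmat3 and Tln1. Of the 15 tested genes with a miR-125 match 0 passed with GFP.miR125sp in edgeR or DESeq2. In edgeR 3 of them were lower at an unadjusted p below 0.05, for which the share of all genes is not given. Their median was −0.08, and that of the genes without a match was −0.02. Over all 3′UTRs the medians were −0.00 with a miR-125 match and 0.00 without.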

How the data were processed

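The authors deposited raw counts of reads per 3′UTR for each RIP library, and raw counts per RefSeq transcript for each mRNA-seq library. The study mapped RIP reads to mm9, while the submitters' processing notes name mm10, STAR and edgeR without a role. Here 98.0% of the 3′UTRs were given a gene name from GENCODE annotation on NCBIM37, and mRNA counts were summed per gene (98.7% of 32850 transcripts matched a RefSeq gene, and 0.967% of counts did not). RIP counts were divided by the library total to give CPM, and ratios are of means over 2 libraries. The 97 members, their comparison sets and the gene lists were chosen with earlier results of these data known.

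mRNA counts were tested with edgeR 4.0.16 in R 4.3.3 (quasi-likelihood test, TMM, filterByExpr, Benjamini-Hochberg over all genes, adjusted p below 0.05), each experiment on its own 3 against 3 mice, and the difference of sponge effects on all 12. The fit was tested on simulated data. RIP libraries held 2417942 to 5072501 counts and mRNA-seq libraries 6950522 to 27833176, and low counts limit the weakly covered 3′UTRs. Genes named are those with the highest control level, least loss, highest and lowest enrichment, nearest the limits, most seed matches, largest and smallest ratio between sponges, and lowest mRNA p. Alternatives were DESeq2 1.42.0, other scalings, count minimums and retention limits, 8-base matches, a mark in the mRNA column headers as a covariate, leaving out each library, and, added after seeing the data, the GFP mice of the other experiment. Seeds were searched with Python 3.11.15 on the 98.6% of the 8203 3′UTRs that had a sequence. Mature sequences are from RefSeq (GRCm38.p6), and those of miR-124 and miR-292 were not used here. The name of 1 member is not reported here.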

Additional observations from a re-analysis of the deposited data

Results flagged for a closer look

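The effects of the sponges on mRNA differed in 13 genes of the retained 3′UTRs by the test of the difference itself (edgeR, 12 mice). The value for miR124sp minus that for miR125sp was, on the log2 scale, 1.08 in Myo1d (adjusted p = 0.00167), 0.75 in Myo1e (adjusted p = 0.00656), 0.69 in Nos1ap (adjusted p = 0.00266), 0.56 in Rhog (adjusted p = 0.0358), 0.55 in Csmd2 (adjusted p = 0.0114), 0.46 in Bbx (adjusted p = 0.00204) and 0.46 in Tln1 (adjusted p = 0.00343). It was 0.42 in Edem3 (adjusted p = 0.0124), 0.37 in Fam55c (adjusted p = 0.0231), 0.36 in Supt6h (adjusted p = 0.0185) and 0.32 in Fbxo10 (adjusted p = 0.037). It was −0.57 in Nop10 (adjusted p = 0.00365) and −0.36 in Srp9 (adjusted p = 0.0108). The call was lost without 1 of the mice for Fam55c, Fbxo10 and Rhog, with adjusted p up to 0.0568, 0.099 and 0.104, and for Fbxo10 also without the filter on low counts. Each effect is taken over its own GFP mice, and experiment and control group cannot be told apart in these differences.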

How the results depend on the processing

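The number of retained 3′UTRs, 97, was 136 with TMM (96 shared), 55 with the Gapdh scaling of the study (0 shared), 231 with a count minimum of 1, 40 and 302 with retention limits of 1.0 and 0.8, 24 with each of the 4 sponge libraries at 0.9 or more, and 92 to 228 with 1 library left out. The median over sham was 4.99 with the Gapdh scaling and 1.82 to 2.16 with a library left out. The ratio with miR124sp was 0.50 and 1.01 to 1.08, and that with miR125sp 0.618 and 1.07 to 1.11, and 1.03 with DESeq2 size factors. With 8-base matches the shares were 7.22% for miR-124, 5.15% for miR-125b and 3.09% for miR-292, against 4.90%, 6.30% and 2.72% of the 3′UTRs that fell with both sponges and 3.39%, 5.27% and 2.19% of all. The cause of these shifts was not tested.

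Of the 85 genes, 19 passed for miR124sp, 8 to 25 with a mouse left out, 13 with the header mark and 3 with the GFP mice of the other experiment. For miR125sp 1 passed, and 4 with DESeq2, 4 without the filter, 0 with the header mark, 0 to 1 with a mouse left out and 31 with the other GFP mice (36.9% of all genes then passed). The difference passed in 13, and in 11 to 22 with a mouse left out (22 without miR124sp replicate 9). Counts here without a share of all genes beside them are not read as results about the members. With the other GFP mice the direction turned for miR124sp in Bbx (−0.33), Cenpb (0.29), Edem3 (−0.26), Fbxo10 (−0.34), Nckipsd (−0.01) and Supt6h (−0.19), and for miR125sp in Bbx (0.25), Cenpb (−0.37), Edem3 (0.44), Fbxo10 (0.26), Myo1e (0.24), Nop10 (−0.41) and Srp9 (−0.20). Cplx3, Fam55c, Myo1d, Myo1e, Nop10, Nos1ap, Rhog and Srp9 kept their miR124sp call under the 10 other alternatives. No paired analysis was possible because the groups compared share fewer than 2 replicate numbers.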
